A study of Mus musculus with 6 samples.

Results

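The 283 probes described here are the brightest circular RNA (circRNA) probes of MOVAS cells whose signal differed little between cells exposed to benzo[a]pyrene (BaP) and control cells. They were chosen from the authors' deposited value table of 14218 circRNA probes. The probes were ranked by their mean over the 3 control arrays, the 300 highest were taken, and those whose mean over the 3 BaP arrays differed from the control mean by less than 1 on the log2 scale (2-fold) were kept. Of the 300, 8 were at least 2-fold higher and 9 at least 2-fold lower in BaP and were left out, so 283 remained, which is 1.99% of the table. MOVAS cells are an established mouse line from the smooth muscle of the aorta, grown here in medium with fetal bovine serum. The control cells received vehicle and the treated cells BaP, a polycyclic aromatic hydrocarbon of combustion smoke, at a dose and for a time that the labels do not give. Each group holds 3 arrays of 1 cell line. The labels name them biological replicates and do not say if these came from different cultures, and the number of arrays limits the precision. The labels also mention Raw264.7 macrophages as a reference, and no sample of them was analysed here. All RNA, of control cells too, was digested with RNase R before it was labelled with Cy3 by random priming.

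Circular RNAs form when the spliceosome joins the end of an exon back to the start of the same or an upstream exon. Having no free ends, they are resistant to exonucleases such as RNase R and decay slowly in cells, and most come from exons of protein-coding genes. In many cell types a small number of them makes up much of the circRNA signal. BaP is known to activate the aryl hydrocarbon receptor, a transcription factor.

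The files name each circRNA by its probe ID and pair it with neither a host gene nor a sequence, so the probes are described by ID and signal. A probe's signal depends on how well it binds and labels as well as on how much RNA is there. "Bright" is therefore used here for what was measured, and the order of the probes is an order of signal and not of copy number. The cell type could not be checked on these arrays, since none of 11 smooth muscle markers, 7 macrophage markers and 5 endothelial markers was among the 44 of 50 mRNA probes that matched a named gene.

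All 6 arrays lay on 1 slide, with the controls and BaP replicate 1 in one row of the slide and BaP replicates 2 and 3 in the other. BaP replicate 3 stood apart from the other BaP arrays, and BaP replicates 1 and 2 were closer to each other than any other pair of arrays, so results are also given without BaP replicate 3. Control replicate 3 was the dimmest array, with a median circRNA signal of 35.9, against 43.7 to 58.2 on the others. All 283 probes were well above background on all 6 arrays, and none of their spots was saturated or an outlier. The brightest spot of an array reached 30.7% to 44.6% of the scanner's saturation value. The dimmest of the 283 was 16.97 to 24.6 times as bright as the brightest negative control probe of its array.

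The rule used the levels and the BaP difference of these probes on all 6 arrays. Both are therefore given as descriptions, and nothing is supported by the size of either. The fit over all probes given further on used the same contrast, so its counts of members are descriptions too. The limits of the rule fell where probes lie close together. The last members by rank were ASCRP4003486 and ASCRP4007328, with control means of 11.504 each in the value table. The next probes down, ASCRP4005379 and ASCRP4000573, were at 11.496 and 11.493 and are not members. On the difference, the members nearest the limit were ASCRP4007240 at 0.92 and ASCRP4008690 at -0.92 (log2, BaP minus control), and the probes just beyond it were ASCRP4007925 at 1.04 and ASCRP4008400 at -1.01.

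These few probes held more of the circRNA signal than all others together. Their summed processed signal, which is the spot brightness after background subtraction on a linear scale, made up 58.8%, 59.1% and 62.1% of the sum over all circRNA probes on control replicates 1 to 3. On BaP replicates 1 to 3 it made up 57.9%, 59.1% and 54.1%. BaP replicate 3 had the lowest share and control replicate 3 the highest, and the other 4 arrays lay between 57.9% and 59.1%. The control mean was 60.0% ± 1.85 (SD, n = 3). The BaP mean was 57.0% ± 2.58 (SD, n = 3), or 58.5% over BaP replicates 1 and 2. The groups overlapped. The 17 bright probes left out by the limit on the difference added 2.06% to 3.08%.

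Within the 283 the signal was uneven. The 10 brightest held 18.8%, 20.4% and 25.3% of all circRNA signal on control replicates 1 to 3, and 20.2%, 21.1% and 13.4% on BaP replicates 1 to 3. The 183 members ranked below the brightest 100 held 13.05% to 15.5% together, and BaP replicate 3 was the highest array there. The low total of BaP replicate 3 was thus made up among the brightest 100, which held 38.7% there and 43.4% to 48.9% on the other arrays. The signal fell steadily with rank, from 313587 for the brightest probe of control replicate 1 to 52514 at its rank 10, 10846 at rank 100 and 3581 at rank 300. The fall from rank 1 to rank 300 was 87.6-fold, 110-fold and 172-fold on control replicates 1 to 3, and 96.3-fold, 97.9-fold and 70.5-fold on BaP replicates 1 to 3. It was steepest on control replicate 3 and shallowest on BaP replicate 3. To reach 50% of the summed signal took 147, 137 and 101 probes on control replicates 1 to 3, of which 141, 127 and 95 were members. On BaP replicates 1 to 3 it took 127, 120 and 180, of which 112, 106 and 159 were members.

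**Figure D1:**
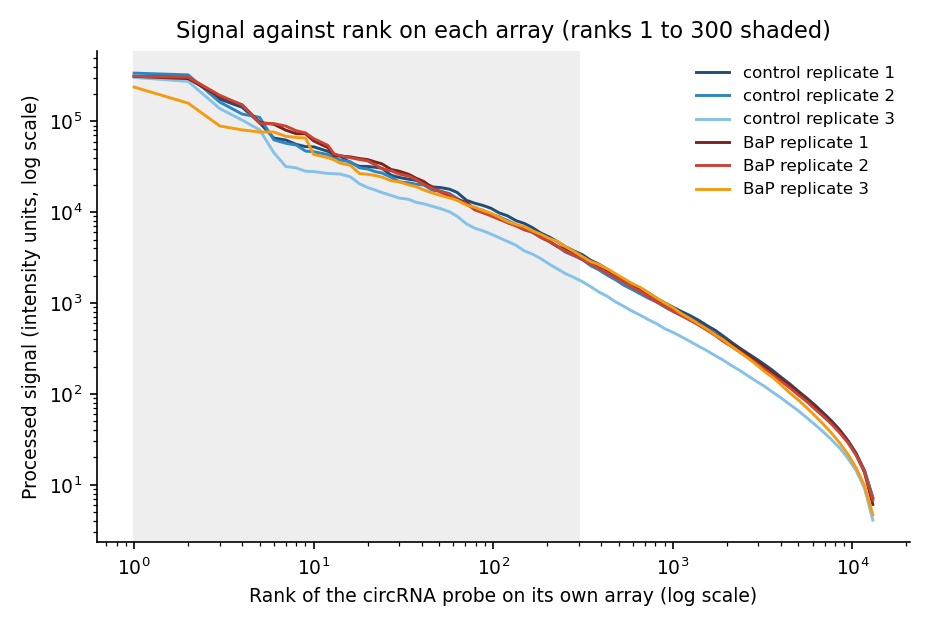
Processed signal of circRNA probes (intensity units, log scale) against their rank on their own array (log scale), 1 line per array, with ranks 1 to 300 shaded. Control replicate 3 lies below the other arrays from about rank 6 on, and BaP replicate 3 starts lowest, at 238621 for its brightest probe.

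**Figure D2:**
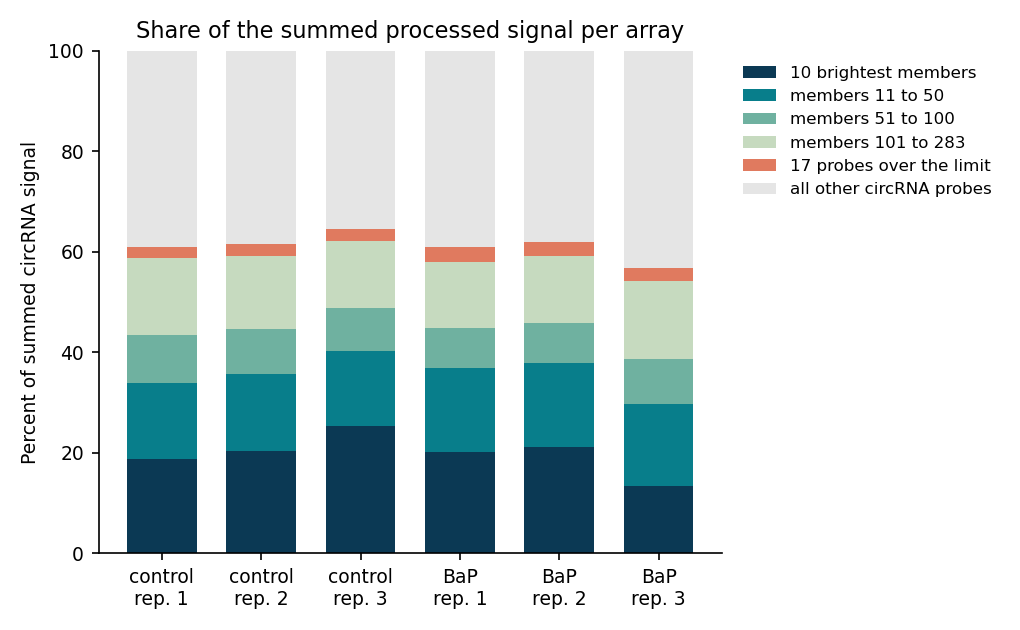
Percent of the summed processed signal of all circRNA probes held by the members, in order of brightness, and by the 17 bright probes left out, 1 bar per array. The 10 brightest members hold 13.4% on BaP replicate 3 and 18.8% to 25.3% on the other arrays.

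The brightest member, ASCRP4006710, had a processed signal of 313587, 340226 and 305226 on control replicates 1 to 3 and of 313257, 313501 and 238621 on BaP replicates 1 to 3. It ranked 1 on every array. By itself it carried 3.89% to 7.27% of the circRNA signal of an array. ASCRP4012684 ranked 2 on every array, with 311412, 325294 and 275611 in control and 295833, 306990 and 158741 in BaP. BaP replicate 3 was the lowest array for both.

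In the value table these 2 probes show a single value on all 6 arrays, 18.25 and 18.13, and a difference between groups of 0.00. They were the only members with one value throughout. At any of the 300 highest ranks the columns of that table differ by at most 0.33, so a value there is set by the rank to within that amount. A probe that keeps its rank there can move by no more than this, whatever its signal does. On the scanner's own signals, taken as log2 minus the 75th percentile of all circRNA probes of the array (called the scaled signal from here on), the 2 probes were not flat. ASCRP4006710 was at 10.73, 10.97 and 11.49 in control and 10.81, 10.90 and 10.59 in BaP arrays, with overlapping groups. ASCRP4012684 was at 10.71, 10.90 and 11.34 in control and 10.73, 10.87 and 10.00 in BaP, with BaP replicate 3 below all others. The differences between group means were -0.29 and -0.45.

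ASCRP4013042 ranked 3 on all arrays but BaP replicate 3, where it ranked 8. Its scaled signal was 9.89, 9.90 and 10.35 in control and 10.06, 10.20 and 8.75 in BaP arrays, so BaP replicates 1 and 2 lay inside the control range and BaP replicate 3 below it. ASCRP4007626, at 9.59, 9.47 and 9.92 in control and 9.76, 9.85 and 8.95 in BaP, moved from rank 4 to rank 5 on BaP replicate 3 alone. ASCRP4006342 ranked 5 on the controls, 6 on BaP replicates 1 and 2 and 10 on BaP replicate 3. Its scaled signal was 9.03, 9.35 and 9.57 in control and 9.06, 9.17 and 8.13 in BaP. In each of these 3 probes only BaP replicate 3 left the range of the controls.

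ASCRP4006652 and ASCRP4007488 went apart within the BaP group. ASCRP4006652 was at 8.47, 8.52 and 8.23 in control and at 9.12, 9.18 and 7.63 in BaP arrays. ASCRP4007488 was at 8.15, 8.11 and 7.85 in control and at 8.84, 9.08 and 7.35 in BaP arrays. In both, BaP replicates 1 and 2 lay above every control and BaP replicate 3 below every control. Their group means (BaP minus control) were 0.24 and 0.38 apart in scaled signal, and 0.03 and -0.04 apart in the value table. ASCRP4013749 and ASCRP4013310, chosen after their values were seen, had the same profile. The first was at 7.98, 7.99 and 7.60 in control and 8.71, 8.91 and 7.17 in BaP arrays, the other at 7.43, 7.46 and 7.17 and at 8.20, 8.37 and 6.60.

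ASCRP4013405 and ASCRP4013313 were higher on every BaP array than on every control in scaled signal but not in the value table. ASCRP4013405 was at 8.39, 8.33 and 8.18 in control and 8.71, 8.83 and 9.17 in BaP, a difference of 0.60, and rose in rank from 7 or 8 on the controls to 3 on BaP replicate 3 but ranked 9 on BaP replicates 1 and 2. In the value table it was at 15.81, 15.70 and 15.70 in control and 15.60, 15.60 and 17.24 in BaP, so BaP replicates 1 and 2 lay below the controls there. ASCRP4013313 was at 7.99, 7.99 and 8.05 in control and 8.44, 8.44 and 8.79 in BaP, a difference of 0.55. Its tabulated values, 15.33, 15.33 and 15.60 against 15.39, 15.39 and 15.81, overlapped. ASCRP4004008 lay lower on every BaP array on both scales, at scaled signals of 8.24, 8.40 and 8.73 in control and 7.91, 8.06 and 7.40 in BaP, a difference of -0.67. It ranked 6 to 10 on the controls and 14 to 20 on the BaP arrays.

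**Figure D3:**
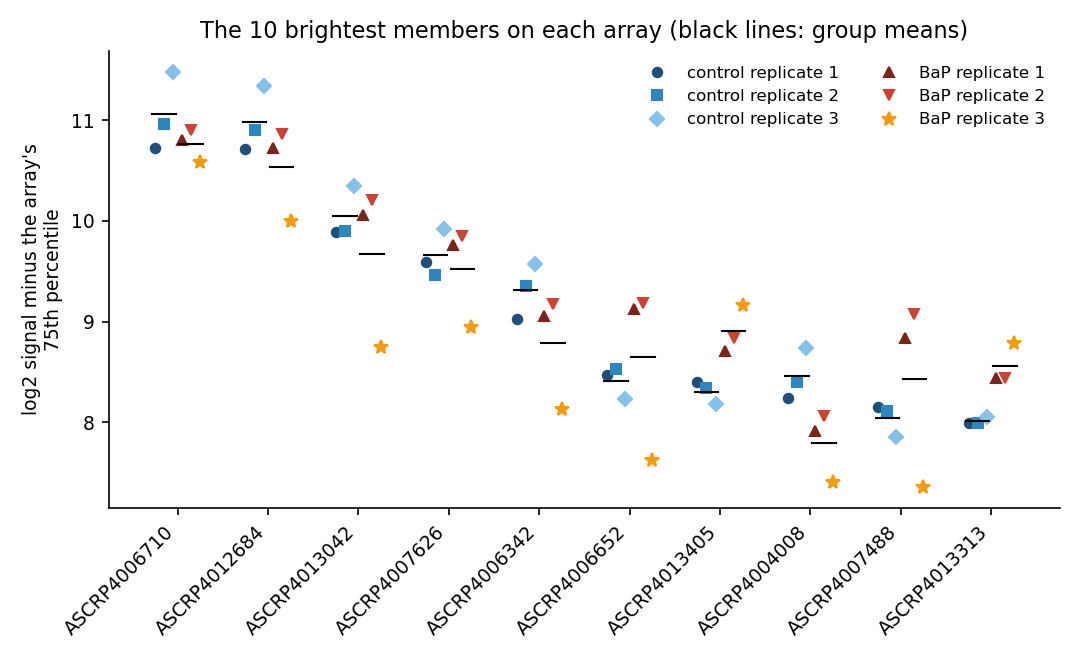
Scaled signal (log2 minus the array's 75th percentile) of the 10 brightest members, 1 point per array with a symbol for each array, and black lines at the means of the 3 control and 3 BaP arrays. BaP replicate 3 (stars) is the lowest of the 6 arrays for 8 of the 10 probes and the highest for ASCRP4013405 and ASCRP4013313.

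The rank order of the 283 was largely shared between arrays. Spearman's rho across the 283 probes was 0.95 to 0.98 for the 3 pairs of control arrays. Between BaP replicates 1 and 2 it was 0.99, and between BaP replicate 3 and each of these 0.91. Pairs of a control and a BaP array gave 0.87 to 0.96, with the 3 lowest values, 0.87 to 0.88, all in pairs with BaP replicate 3. The median over all 15 pairs was 0.945, and 0.961 without BaP replicate 3. The points of such a correlation share their array, and the ranking narrows their range. Over all circRNA probes tested the rho of the same kinds of pairs was 0.978 to 0.988, 0.950 to 0.994 and 0.917 to 0.967.

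Ranked by tabulated value, 231 of the 283 members (81.6%) were among the 300 highest probes of every array. By group, 271 to 277 were so on a control array and 246 to 252 on a BaP array. The ranking used the control arrays, which favours them in this count. The median member moved over 43 ranks between its best and its worst array. The move grew down the list, from 16 among members 1 to 50 to 33 among members 51 to 150 and 74 among members 151 to 283. Ranks also lay closer together in signal further down. On control replicate 1 the signal was 31887 at rank 20 and 18778 at rank 50, but 5457 at rank 200 and 3581 at rank 300. A longer move in rank there need not mean a larger change in signal. Of the 10 brightest, 6 were in the 10 highest of every array. The longest move was that of ASCRP4006634, named after its values were seen, at ranks 133, 129 and 93 on the controls, 99 and 82 on BaP replicates 1 and 2, and 616 on BaP replicate 3.

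The ranking was also read on arrays that had no part in it. With the 300 highest taken from 2 controls, 283, 288 and 281 of them were among the 300 highest of the control left out (control replicates 1, 2 and 3). The BaP arrays had no part in the ranking by controls, and 266, 264 and 256 of the 300 were among the 300 highest of BaP replicates 1, 2 and 3. With the limit on the difference applied to 2 BaP arrays only, 1 of 278 and 1 of 279 probes lay 2-fold or more from the control mean on BaP replicates 1 and 2 when each was left out. On BaP replicate 3 it was 27 of 290, or 9.31%, with 9 higher and 18 lower. Among all probes tested that passed the same limit on the other BaP arrays, the shares were 0.865%, 0.697% and 4.103% for BaP replicates 1, 2 and 3. No test was made of these shares, whose probes share their arrays. They were read in the value table only and can depend on the scale. There 5.89% of all probes tested lay 2-fold or more from the control mean on BaP replicate 3, against 15.9% with 75th percentile scaling.

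Apart from BaP replicate 3, repeat arrays of a group differed little for the members. The median within-group SD of the scaled signal was 0.16 among the 283 and 0.20 among all 13135 probes tested that the value table holds. Tested probes are those that 3 or more of the 6 arrays showed well above background. It was 0.19 for ranks 301 to 600, 0.18 for ranks 601 to 1200 and 0.17 for ranks 1201 to 3000 and 3001 to 6000, so the members were close to probes far dimmer than themselves. With normexp background correction and quantile normalization the order turned, at 0.12 for the members and 0.095 for all. Among the controls alone the median SD was 0.11 for the members and 0.17 for all, and among the BaP arrays 0.17 and 0.20. Without BaP replicate 3 the median within-group SD of the members was 0.097. The median size of the difference between BaP replicates 1 and 2 was 0.09, against 0.10 to 0.18 between controls and 0.24 and 0.32 between BaP replicate 3 and the other BaP arrays. Over all probes tested these values were 0.12, 0.16 to 0.25, and 0.27 and 0.32. Between BaP replicates 1 and 3 the members were thus no closer than all probes. The scanner software's own error estimate for a member's spot had a median of 10.0% of its signal on each array, close to the 10.2% to 10.7% of all circRNA probes.

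The narrowest members kept one level on all arrays. The scaled signal of ASCRP4006404 was 5.17, 5.13 and 5.14 in control and 5.17, 5.13 and 5.13 in BaP arrays. For ASCRP4006199 it was 5.23, 5.23 and 5.24, and 5.29, 5.18 and 5.29. In the value table ASCRP4006404 ran from 12.18 to 12.57 and ASCRP4006199 from 12.29 to 12.66.

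The widest members were wide within a group. ASCRP4011502 was at 3.62, 5.72 and 6.13 in control and 6.37, 7.0 and 4.29 in BaP arrays, with control replicate 1 and BaP replicate 3 far below the rest and overlapping groups. It was kept because its tabulated means, 12.23 ± 1.41 and 12.92 ± 1.47 (SD, n = 3 each), differed by 0.69. ASCRP4009097 was at 6.04, 5.97 and 6.38 in control and 6.34, 6.66 and 3.89 in BaP arrays, again with BaP replicate 3 alone far below.

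Small differences between the groups ran in both directions. In the value table the median difference (BaP minus control) over the members was -0.16, with 77 higher and 204 lower and 2 at 0. In size, 158 were under 0.25, 95 from 0.25 to 0.5 and 30 from 0.5 to 1. Over all probes tested the median was -0.03 and 56.1% were lower. The members' lean toward lower values depended on the scaling. On the scaled signal the median was -0.08 for the members and -0.09 for all tested, and 185 of 283 (65.4%) were lower against 61.9% of all. With each array scaled to its median the values were -0.01 and -0.01, and 149 (52.7%) were lower against 52.2%. Relative to the median of all probes, 138 members were lower and 145 higher on both of these scales, against 199 lower and 84 higher by the tabulated values.

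The same dependence showed in the probes whose 3 BaP arrays all lay on one side of the 3 controls. By the tabulated values, 117 members lay wholly lower and 29 wholly higher, against a background of 17.6% lower and 14.9% higher over all tested. With quantile normalization of the processed signal it was 123 and 25 (background 19.1% and 15.6%), and with normexp background correction before it 118 and 27 (18.4% and 14.9%). On the scaled signal it was 40 lower and 33 higher (19.5% and 14.0%), and with median scaling 7 lower and 39 higher (12.1% and 16.1%). The rule used this contrast, so nothing is read from these counts beyond that their direction turned with the scaling.

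**Figure D4:**
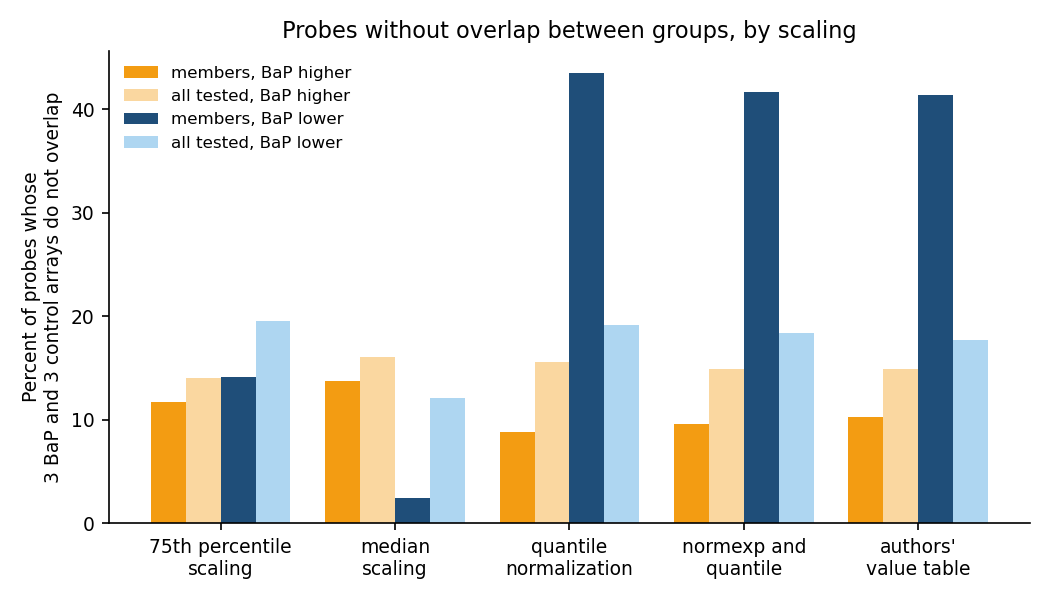
Percent of the 283 members and of all 13135 probes tested whose 3 BaP arrays all lie above or all below the 3 control arrays, under 5 ways to bring the arrays to one scale. The members lying wholly lower in BaP number 117 to 123 with the 3 rank-based scalings on the right, 40 with the 75th percentile and 7 with the median.

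By array, most members lay lower in the mean of BaP replicates 1 and 2 on all 5 scales, and on BaP replicate 3 with the 3 rank-based ones only. The mean of BaP replicates 1 and 2 lay under the control mean for 204 members in scaled signal, 203 after median scaling and 207 by the tabulated values, against 61.6%, 60.8% and 61.5% of all tested. BaP replicate 1, the only BaP array in the slide row of the controls, was lower for 207, 205 and 200 members on the same scales, against 61.6%, 61.0% and 60.5% of all. BaP replicate 3 lay under the control mean for 125, 40 and 197 members, against 57.2%, 37.5% and 46.9% of all. It was lower for 192 members with quantile normalization and 193 with normexp before it, against 46.6% and 47.6% of all. The part of the scaling of BaP replicate 3 in these counts was not tested.

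In 263 members each BaP array by itself lay within 2-fold of the control mean in the value table. The other 20 were kept through their mean. BaP replicate 3 was 2-fold or more off in 19 of the 283 (6.71%), close to the background of 5.89% of all tested. In none of the 19 was another BaP array so far off. Of the 19, 7 were higher and 12 lower in the value table, but the direction turned with the scaling. On the scaled signal 10 members were so far higher and 10 lower, and with median scaling 17 and 4. These 20 and 21 members lay below the background on those scales, where 15.9% and 15.8% of all tested were so far off. In the remaining 1 of the 20, ASCRP4011502, the mean of BaP replicates 1 and 2 was 2-fold or more off (background 3.15%). In scaled signal BaP replicate 3 lay at least 2-fold below BaP replicates 1 and 2 in 9 members and at least 2-fold above in 3. These 12 are 4.24% of the members, where 11.5% of all probes tested lay that far apart. Of the 9, BaP replicates 1 and 2 lay above the control mean in 8, and 5 were among the 50 brightest. Together the 9 held 5.75% to 6.15% of the circRNA signal on control arrays, 7.76% and 8.41% on BaP replicates 1 and 2 and 2.75% on BaP replicate 3.

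**Figure D5:**
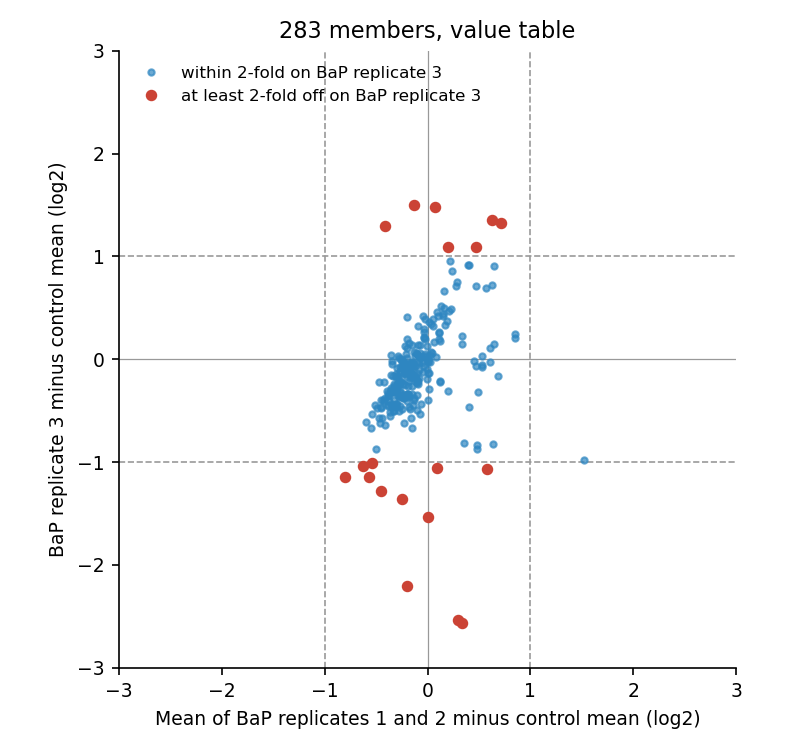
Difference from the control mean (log2, value table) of the mean of BaP replicates 1 and 2 (horizontal) and of BaP replicate 3 (vertical), 1 point per member, with dashed lines at 2-fold. In 19 members only BaP replicate 3 is 2-fold or more from the control mean, and 1 point, ASCRP4011502, lies beyond 1 on the horizontal axis.

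The largest tabulated differences among the members were those of ASCRP4007240 and ASCRP4010015 upward and of ASCRP4008690 and ASCRP4003791 downward. ASCRP4007240 was at 11.66, 11.76 and 11.77 in control and 12.41, 12.48 and 13.06 in BaP arrays, and every BaP array lay above every control. ASCRP4010015 was at 12.10, 12.07 and 12.08 in control and 12.62, 12.79 and 13.44 in BaP arrays, again without overlap and with BaP replicate 3 highest. ASCRP4008690 was at 14.60, 14.74 and 15.13 in control and 13.99, 14.05 and 13.68 in BaP arrays, each BaP array below each control. ASCRP4003791 was at 12.91, 13.002 and 12.96 in control and 12.80, 12.73 and 10.75 in BaP arrays, with every BaP array below every control and BaP replicate 3 far below the rest. Its tabulated difference was -0.86, and -0.19 over BaP replicates 1 and 2.

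In the fit over all 13151 circRNA probes tested, 1 of the 283 members passed an adjusted p of 0.05 (limma, Benjamini-Hochberg), where 3.45% of all probes did (2.43% higher and 1.03% lower). At an unadjusted p under 0.05 it was 34 members (12.01%), against 23.3% of all. It was ASCRP4007282, named after its values were seen, at 4.85, 4.70 and 4.54 in control and 5.31, 5.49 and 5.56 in BaP arrays in scaled signal, a log2 difference of 0.76 (SE 0.13). In scaled signal 1 member, ASCRP4007240, was at least 2-fold apart, at 1.02 (background 7.70%). A limit on the difference keeps probes with large effects out, so these counts were set by the rule. Without BaP replicate 3 the fit called 23 members (8.13%), all higher in BaP (background 9.52%, with 7.03% higher and 2.49% lower). In the value table it called 25 (8.83%), of which 6 were higher and 19 lower (background 8.35%, with 5.44% and 2.91%). The number of members called thus changed with the array left out, and both their number and their direction with the scaling. The share called over all probes changed as well, so the change in number is not particular to the members.

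The members were spread over the array. They lay in rows 2 to 192 and columns 1 to 82 of the printed grid, with 69, 63, 78 and 73 in the 4 successive blocks of rows of equal height. Their spots were wider than those of other circRNA probes, with a median extent of 52.3 to 57.0 on an array, in the scanner software's unit, against 46.5 to 46.9 for all. Of the 18 circRNA probes on the arrays that the value table does not hold, none ranked among the 300 brightest by the scanner's control signals, and the highest ranked 1726.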

How the data were processed

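Spot intensities came from Agilent Feature Extraction 11.0.1.1, per the file headers, which subtracted background within each array and gave a processed signal and flags (scores of 0 or 1) per spot, with 1 spot per circRNA probe and no scaling between arrays. The log2 value table is the authors' deposited one. The submitters' processing notes name limma, and no source used here gives its centring or exact steps.

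The members and lists were chosen with earlier results of these data known. Members were found in the value table. Here the processed signal was converted to log2 minus each array's 75th percentile, without outlier spots, and all 13151 circRNA probes well above background on at least 3 arrays were fitted with limma 3.58.1 (R 4.3.3; two-sided, Benjamini-Hochberg). The fit was tested on simulated data. A p-value here reflects only variation among these arrays, possibly technical. Named probes are the 10 brightest, the 2 largest differences each way, the 2 narrowest and 2 widest ranges, and those next to the rule's limits; others are marked as chosen after their values were seen. Alternatives were other scalings, filters, variance models and limits, blocks, and leaving out each array. Host gene lists were not used, as no host genes were paired with probes. Figures were drawn with matplotlib 3.10.9.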

Additional observations from a re-analysis of the deposited data

How the results depend on the processing

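The count of members past an adjusted p of 0.05 was 1 in limma and changed with every alternative run. Quantile normalization gave 5 (6.04% of all probes tested passed) and normexp before it 38 (7 higher, 31 lower; 8.06% of all). The count was 3 with median scaling (5.57% of all), 25 in the value table (8.35%), and 3 each with the strictest filter (4.92%) and with an intensity trend and robust variance (4.30%). It was 0 with no filter (32 at an unadjusted p under 0.05 in limma), where 2.25% of all passed the adjusted one. With BaP replicates 1 and 2 averaged, chosen after seeing the data, it was 0 for members and for all probes (27 members unadjusted in limma). With the slide row as a block it was 0 for both as well (12 members unadjusted in limma). There the BaP difference rests on BaP replicate 1, the only BaP array in the row of the controls. A fit within slide row 1, also chosen after seeing the data, has only that BaP array, so its count is left out. Same-numbered deviations correlated at -0.40, 0.13 and -0.26. With 3 arrays per group and BaP replicate 3 apart from the rest, these values cannot decide if the numbers pair the samples. The replicate block gave 0 for members and for all probes (23 members unadjusted in limma). Without 1 array at a time it ran from 0 to 23, where 23 is the fit without BaP replicate 3 and the other 5 fits gave 0 (22 to 39 unadjusted in limma). Of those 5 only the fit without control replicate 2 called any probe, 2.21% of all. The cause was not tested. The rule found 193 to 290 members under its alternatives other than taking the 500 highest (475), with 263 where each BaP array had to lie within the limit (also chosen after seeing the data), and 276 or more of the 283 again on leaving out an array. The members' share of signal on control arrays was 57.5% from median spot signals, 57.1% in the value table, 53.0% with normexp and quantile normalization and 62.5% with the negative control mean subtracted, and on BaP arrays 51.3% with normexp and quantile normalization. Leaving out single arrays gave 59.0% to 60.6% and 56.0% to 58.5%. The median SD ranged from 0.097 to 0.24 and the median rho from 0.918 to 0.961.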
